A study of Mus musculus with 30 samples.

Results

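The comparison described here is D6-deficient mouse back skin 6 days against 1 day after the last application of TPA (12-O-tetradecanoylphorbol-13-acetate), a phorbol ester that irritates the skin. Its members were taken by the labels, as the 3 D6-deficient arrays of day 6 and the 3 of day 1, so they are 6 of the 30 Affymetrix arrays of the series. All mice were female, 8 to 12 weeks old and of a mixed 129–C57BL/6 background. D6-deficient mice lack the atypical chemokine receptor D6 in every cell, and WT mice of the same background stand beside them. Both received 3 applications of 50 µM TPA in acetone on the shaved back, 24 h apart, and whole skin was taken 1 or 6 days later from different animals. Day 0 skin of each genotype had acetone and no TPA by the methods, although the labels call it untreated. Every group held 3 arrays. The labels give no hour at which the skin was taken. The comparison asks which transcripts of the irritated skin still moved between the early response and its later phase in mice without D6.

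D6, now named Ackr2, binds inflammatory CC chemokines without signalling through G proteins and takes them into the cell for breakdown, and in skin it is known from lymphatic vessels. TPA activates protein kinase C, which switches on transcription factors of the AP-1 family, drives keratinocytes to divide and thicken the epidermis, and draws in leukocytes. Shaving and irritation can also move hair follicles into their growth phase, in which the hair shaft and the inner root sheath are built from their own keratins.

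The array carries 3 probe sets of the D6 gene itself. On the dimmest, the D6-deficient arrays read 3.86, 3.77 and 3.41 on day 1 and 3.57, 3.47 and 3.33 on day 6 (log2 intensity, replicates 1 to 3), and the WT arrays 4.55, 4.93 and 4.41 and then 5.05, 4.21 and 4.60. Counting every day, the highest of 15 D6-deficient arrays was 3.86 and the lowest of 15 WT arrays 4.15, so they did not overlap, with a difference of -1.41 (SE 0.11, adjusted p = 1.3e-08). On the next probe set the difference was -0.69 (SE 0.10, adjusted p = 5.2e-05), with ranges of 4.55 to 5.42 and 5.14 to 6.26 that overlap. The brightest probe set disagreed with both, with a difference of -0.07 (SE 0.11, adjusted p = 0.80). Between day 1 and day 6 within D6-deficient skin the 3 probe sets differed by -0.22, 0.19 and 0.17, and each had overlapping days. The tissue label was checked on Krt5, the keratin of basal keratinocytes, which read 12.34 to 12.91 on the 6 arrays, and on the dermal collagen Col3a1, which read 14.47 to 14.62.

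Few transcripts differed between the days. Of 36029 probe sets tested with limma, 104 passed an adjusted p of 0.05 (0.289% of those tested), 36 higher on day 6 (0.0999%) and 68 higher on day 1 (0.189%). They include 99 probe sets of 86 named genes. "Rose" and "fell" are used below for these alone, always from day 1 to day 6. The median rise was 0.65 and the median fall -0.90 on the log2 scale, against a median of -0.013 over all probe sets. In each of the 104 the 3 arrays of one day lay wholly above those of the other, as they did for 2235 of all probe sets with day 6 above (6.2%) and 2919 with day 6 below (8.1%). A change of more than 3-fold was met by 8 of the 104, which are referred to as called (0.0222%). Krtap8-1 and Krtap11-1 were called higher on day 6, and Per2, Ereg, Lce3c, Aqp5, Sh2d5 and Ifit1bl1 higher on day 1.

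These counts rest on few arrays. Leaving out 1 array at a time gave 3 calls without day 1 replicate 1, 3 without day 1 replicate 3, 18 without day 6 replicate 2 and 68, of which 59 were higher on day 6, without day 6 replicate 3. The count at an adjusted p of 0.05 alone became 25 without day 1 replicate 1, 50 without day 1 replicate 2, 63 without day 1 replicate 3 and 468 without day 6 replicate 3. Of the 104 probe sets, 14 passed in all 6 of these fits, among them those of Per2, Nr1d1, Cry1, Jun, Tsc22d3, Hsph1 and Shoc2. With the 6 arrays alone, without the spread of the other groups, none of the 104 passed and 2 others did, Gm3579 and a probe set without a symbol. With only the D6-deficient arrays of all days 33 of the 104 passed, Per2 and Ereg among them. The adjusted p was then 0.10 for Krtap8-1, 0.16 for Krtap11-1, 0.065 for Lce3c, 0.12 for Aqp5, 0.050 for Sh2d5 and 0.077 for Ifit1bl1, the Sh2d5 value lying just above the threshold before rounding. Among genes named later it was 0.10 for Jun, 0.11 for Npas2, 0.14 for Ifit3, 0.077 for Fkbp5 and 0.12 for Shoc2. Dimmer probe sets named later gave 0.17 for Errfi1, 0.19 for Fbn1, 0.13 for Vcam1 and 0.13 and 0.057 for Ptges. A second probe set of Fkbp5 gave 0.14. Within the high set of hybridization controls none of the 8 called genes passed. The methods' t-test called 0 after Benjamini-Hochberg adjustment and 12 on unadjusted p, both with the 3-fold threshold. In limma 4218 probe sets had an unadjusted p under 0.05 whatever their fold. After each array was centred on its median 117 probe sets passed, 93 of the 104 among them, with 58 higher on day 6 and 59 higher on day 1 in place of 36 and 68. The spread between arrays was wider on day 6 (median SD 0.2) than on day 1 (0.145), and on the first principal component of the 6 arrays, with 39.5% of the variance, day 6 replicates 2 and 3 stood at opposite ends (53.1 and -47.7).

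**Figure D1:**
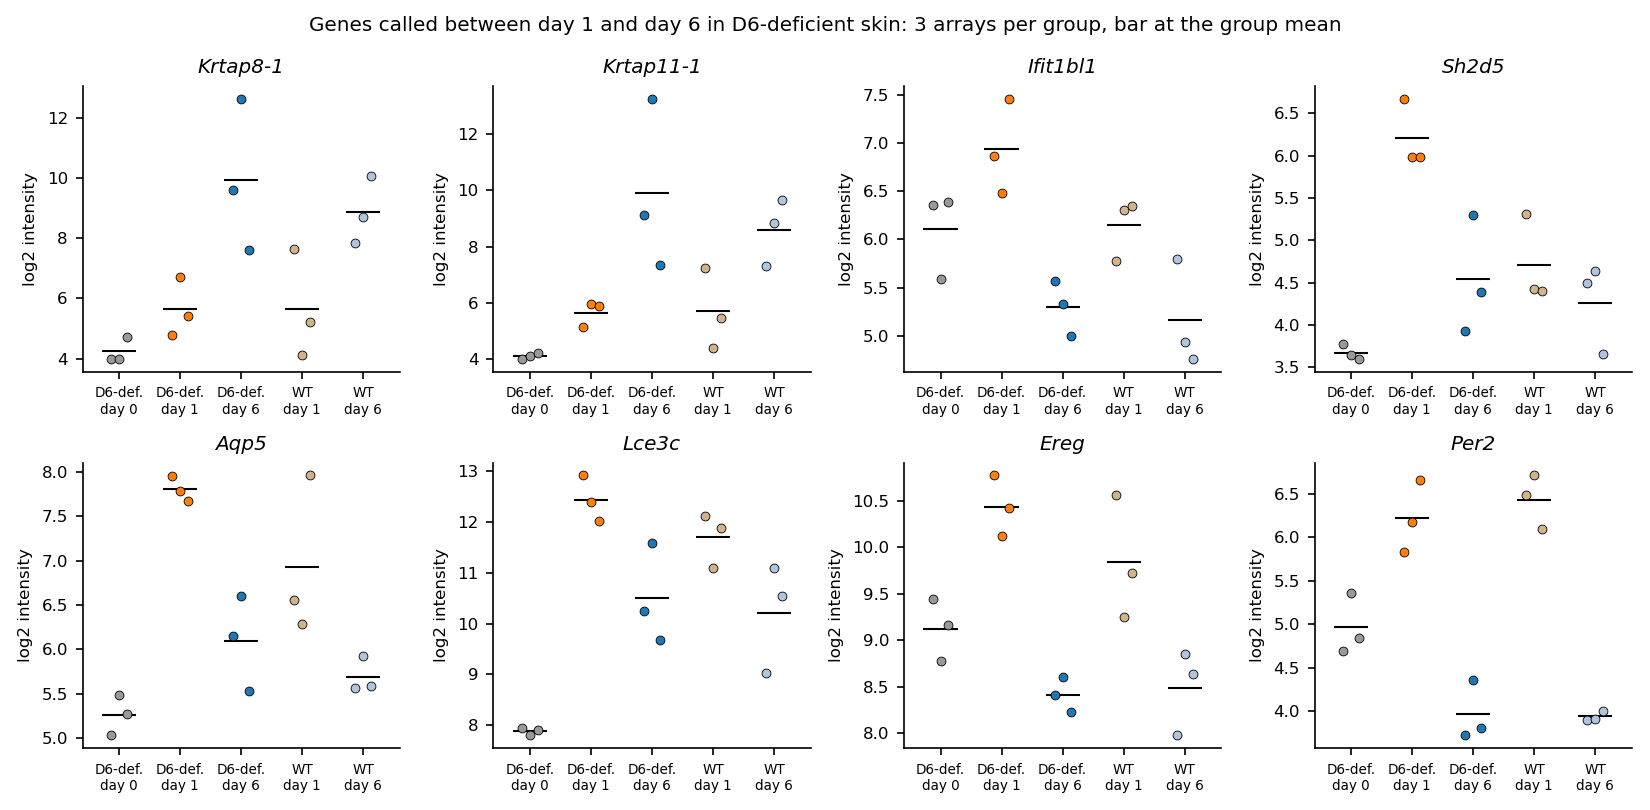
Log2 intensity of the 8 called genes in each of 3 arrays per group, with a bar at the mean, for D6-deficient (D6-def.) skin on days 0, 1 and 6 and WT skin on days 1 and 6. Krtap8-1 spreads from 7.62 to 12.63 on D6-deficient day 6, whereas Ereg lies between 8.23 and 8.61 there and between 10.12 and 10.77 on day 1.

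Hair shaft genes rose most. Krtap8-1 and Krtap11-1 encode keratin-associated proteins, the matrix that cross-links the keratin filaments of the hair shaft. Krtap8-1 read 4.78, 6.71 and 5.43 on day 1 and 9.60, 12.63 and 7.62 on day 6, after 4.00, 3.99 and 4.73 on day 0, a rise of 4.31 (SE 0.90, 19.9-fold, adjusted p = 0.034). All 3 day 6 arrays were above all day 1 arrays, but they spread widely among themselves, with an SD of 2.52 against 0.98. Krtap11-1 read 5.14, 5.97 and 5.88 on day 1 and 9.14, 13.25 and 7.35 on day 6, a rise of 4.25 (SE 0.85, adjusted p = 0.026). Day 6 replicate 2 was the highest and replicate 3 the lowest of its group in both genes. Without single arrays the rise ran from 2.97 to 5.48 for Krtap8-1 and from 2.58 to 5.53 for Krtap11-1, so its size is uncertain. The adjusted p of Krtap8-1 was 0.19 without day 1 replicate 1, 0.089 without day 1 replicate 3, 0.072 without day 6 replicate 1 and 0.12 without day 6 replicate 2, and it was just above the threshold (0.050) with a mean-variance trend and robust fit. That of Krtap11-1 was 0.13, 0.079 and 0.060 without day 1 replicates 1, 2 and 3 and 0.062 without day 6 replicate 2.

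Hair keratins and inner root sheath genes had a mean level above day 0 on day 1 already, but not in every member. Of 34 tested members 33 were higher on day 6, with a median change of 1.30 against 0.006 over all genes tested, of which 51.3% were higher on day 6. The 2 keratin-associated genes rose and none fell, where 17 of 17769 genes rose in all (0.0957%) and 37 fell (0.208%). The mean level over the members was 4.97, 4.91 and 5.06 on day 0, then 7.60, 8.02 and 7.36 on day 1 and 8.87, 11.45 and 7.45 on day 6. Above day 0 at an adjusted p under 0.05 were 19 of the 34 on day 1 and 32 on day 6, where 18.8% and 18.5% of all genes were, in contrasts that share arrays with this one. The 2 genes that rose were not among the 19 (adjusted p = 0.24 and 0.17), and the list level of day 6 replicate 3 lay within the range of day 1. In 6 of the 34 members day 6 lay wholly above day 1, where 7.39% of all genes did. The median was 0.25 without day 6 replicate 2 and was 2.26 without day 6 replicate 3. Members that did not pass include the hair shaft keratins Krt33a (change 3.23, adjusted p = 0.083) and Krt31 (2.89, 0.078). Most abundant was Krt25 of the inner root sheath, at 12.46 on day 1 and 12.83 on day 6, and 10 members were below the filter, all keratin-associated protein genes. Whether more follicle cells or more RNA per cell stands behind such a level cannot be told apart in bulk skin, for these or any other cells.

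Genes of the outer, stressed epidermis made up the next group. Lce3c, a late cornified envelope protein made when the epidermis is wounded or irritated, read 12.92, 12.40 and 12.02 on day 1 and 10.24, 11.58 and 9.67 on day 6, far above its 7.80 to 7.95 on day 0 on both days. It fell by 1.95 on the log2 scale (SE 0.42, adjusted p = 0.041), with replicate 2 of day 6 closest to day 1, and its adjusted p was 0.057 with replicate number as a block and 0.055 with a trend and robust fit. That p was 0.22, 0.11 and 0.056 without day 1 replicates 1, 2 and 3, 0.12 without day 6 replicate 1 and 0.081 without day 6 replicate 3. Sprr2k, a small proline-rich protein of the same envelope, read 7.42, 7.07 and 6.66 on day 1 and 5.92, 6.25 and 5.62 on day 6, a change of -1.12 (SE 0.23, adjusted p = 0.029). Day 6 had come most of the way back to the 5.31 to 5.47 of day 0. Its adjusted p was 0.20 and 0.092 without day 1 replicates 1 and 2 and 0.078 and 0.054 without day 6 replicates 1 and 3. The skin peptidase gene Klk9, picked after its values were seen, read 9.53, 9.13 and 9.15 and then 7.88, 7.73 and 7.64, a tight fall by 1.52 on the log2 scale (SE 0.28, adjusted p = 0.017, and 0.10 without day 1 replicate 1).

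As a list, the activated epidermis, that is keratins, small proline-rich proteins and alarm signals that irritated keratinocytes make, lay lower on day 6 in 28 of 30 tested members. Its median change was -0.99. The median difference of its members from day 0 was 2.63 on day 1 and 1.94 on day 6, in contrasts that share arrays with this one. Such medians are taken over members in each contrast and do not subtract to the median change. Its only member to pass was Sprr2k. Over all genes 0.208% fell and 48.7% were lower on day 6. In 13 members of the list day 6 lay wholly below day 1, where 6.76% of all genes did. The list level was 11.26, 10.86 and 10.73 on day 1 and 9.96, 10.68 and 9.62 on day 6, against 8.19, 7.72 and 8.90 on day 0. Every day 6 array was below every day 1 array in this mean, replicate 2 only just. Krt16, a keratin of wounded epidermis, illustrates the members that did not pass, with 13.58, 12.80 and 12.52 on day 1, 11.07, 12.66 and 10.90 on day 6 and a change of -1.43 (adjusted p = 0.28). Day 6 replicate 2 overlapped day 1 in Krt16. In the cornified envelope and barrier list 37 of 41 members were lower on day 6, 12 with day 6 wholly below day 1, with a median of -0.47 that was -0.26 without day 6 replicate 2, and Lce3c alone passed. Lor, the main envelope protein of normal epidermis, had -0.47 (adjusted p = 0.76). The list level was 10.98, 10.69 and 10.97 on day 1, 10.41, 10.20 and 10.49 on day 6, and 10.34, 10.08 and 10.27 on day 0, so here day 6 stood near the level of day 0.

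Sprr2k also shows the motif through which TPA acts. The AP-1 site, or TPA response element, TGANTCA, was searched on both strands of RefSeq promoter windows of 300 bases around a start of transcription (build GRCm38.p6). It was found in 50.0% of the 24 activated epidermis genes that have a window, in 37.0% of the 27 interferon-induced genes with one, in 21.3% of the 47 genes with a window that fell and in 8.33% of the 24 that rose, against 7.07% of all 12869 tested genes with a window. None of the 3 genes called higher on day 1 that have a window held it. A match describes the letters, not a working site. The Sprr2k window, chr3:92432332-92432631 on the plus strand, holds it at 2 places, shown in capitals.
Sprr2k: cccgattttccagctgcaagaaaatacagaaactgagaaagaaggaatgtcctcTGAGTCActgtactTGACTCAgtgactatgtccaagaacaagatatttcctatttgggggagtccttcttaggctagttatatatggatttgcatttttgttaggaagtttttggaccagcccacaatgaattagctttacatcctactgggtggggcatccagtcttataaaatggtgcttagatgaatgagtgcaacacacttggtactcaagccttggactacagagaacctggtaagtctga

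Among the other called genes, Ereg encodes epiregulin, a growth factor that binds the EGF receptor and is released by irritated keratinocytes. It read 10.77, 10.12 and 10.42 on day 1 and 8.41, 8.61 and 8.23 on day 6, and so fell by 2.02 on the log2 scale (SE 0.36, 4.05-fold, adjusted p = 0.013, and 0.087 without day 1 replicate 1). Day 6 lay below the 8.78 to 9.44 of day 0 as well, and the groups were tight. Among the 12 tested EGF receptor ligands and receptors, on the brightest probe set of each, Ereg alone passed, where 0.208% of all genes fell. Of these 12, 7 were lower on day 6, where 48.7% of all genes were. The list median was -0.18 (-0.03 without day 1 replicate 3). Epgn, a relative of Ereg, had a change of -1.88 (adjusted p = 0.11), and the receptor Egfr one of 0.07 (0.92). For Errfi1, an inhibitor of that receptor, the probe sets disagreed, with -0.25 (adjusted p = 0.61) on the brightest and -0.70 (0.024) on a dimmer one picked after its value was seen. The dimmer one gave 0.068 and 0.12 without day 1 replicates 1 and 3 and 0.11 without day 6 replicate 1. Aqp5, a water channel of glands, read 7.95, 7.79 and 7.67 and then 6.15, 6.60 and 5.53, after 5.03 to 5.49 on day 0, a change of -1.71 (SE 0.37, adjusted p = 0.044). Without day 1 replicates 1, 2 and 3 its adjusted p was 0.19, 0.12 and 0.084, and without day 6 replicates 1 and 3 it was 0.096 and 0.078. With the control sets as a covariate it was 0.051, and with a trend and robust fit just above the threshold (0.050). Sh2d5, which encodes a protein with an SH2 domain, read 6.67, 5.98 and 5.99 and then 3.93, 5.30 and 4.39, a change of -1.67 (SE 0.32, adjusted p = 0.019, but 0.13 without day 1 replicate 1 and 0.099 without day 6 replicate 1). A second probe set of Sh2d5 disagreed, with overlapping days and a change of -0.33 (adjusted p = 0.43).

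Jun, a subunit of AP-1, fell by 0.58 on the log2 scale with little spread (SE 0.10, adjusted p = 0.011), from 10.08, 10.03 and 10.16 to 9.49, 9.54 and 9.49. Day 6 was also below the 9.76 to 9.99 of day 0. Jun was the only one of 22 AP-1 and immediate early factors to pass, where 0.208% of all genes fell. Of the list 17 members were lower on day 6, where 48.7% of all genes were. The list median was -0.26, which was -0.10 without day 1 replicate 3. Fosl1, a Jun partner in irritated skin, had a change of -1.16 (adjusted p = 0.078). Hk2, the hexokinase that starts glycolysis in growing cells, fell by 0.88 on the log2 scale, from 10.52, 10.28 and 10.57 to 9.58, 9.55 and 9.58 (SE 0.15, adjusted p = 0.0089, and 0.051 without day 1 replicate 1). It was the sole member to pass among 18 glycolysis and hypoxia genes, where 0.208% of all genes fell. Of the 18, 9 were higher on day 6 and 9 lower, where 51.3% and 48.7% of all genes were. After centring 12 were higher and 6 lower, but centring also moved the median over all genes from 0.006 to 0.036. The share of all genes higher on day 6 after centring was not counted. The list median was 0.02, which was -0.11 without day 6 replicate 3 and 0.14 without day 6 replicate 2.

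Clock genes were among those with the lowest adjusted p values. In this loop, Arntl with Clock or Npas2 switches on the Per and Cry genes, whose products repress them, and Nr1d1 represses Arntl in turn. Nr1d1 read 6.00, 6.30 and 5.64 on day 1 and 7.35, 7.36 and 7.80 on day 6, a rise of 1.52 (SE 0.19, adjusted p = 5.5e-04). On the probe set that was called, which is not its brightest, Per2 read 5.83, 6.18 and 6.66 and then 3.72, 4.36 and 3.81, and so fell by 2.26 on the log2 scale (SE 0.30, adjusted p = 9.8e-04). Its day 6 arrays lie near the lowest mean that the filter kept, 3.72, so the size of this fall is uncertain. Cry1 read 8.19 on all 3 day 1 arrays and 7.38, 7.40 and 7.16 on day 6, a change of -0.87 (SE 0.11, adjusted p = 5.5e-04). In these 3 genes the days were far apart, and each passed without any 1 array, at adjusted p values up to 0.0095, 0.013 and 0.0066. The other probe sets of Per2 fell by less, with a change of -0.84 on the brightest (adjusted p = 0.023, with 0.10 and 0.084 without day 1 replicates 1 and 3) and -0.69 (0.044, but 0.053 with replicate number as a block, 0.052 with the control sets as a covariate and 0.063 with array weights). With only D6-deficient arrays these 2 gave 0.057 and 0.21. The -0.69 probe set passed only without day 6 replicate 2 among the leave-out fits, with an adjusted p of 0.16 at most, without day 1 replicate 3.

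Over the 16 clock genes tested, with the brightest probe set of each, 1 rose, 3 fell, 3 had day 6 wholly above day 1 and 5 wholly below, and the median was -0.17. Over all genes these shares are 0.0957%, 0.208%, 7.39% and 6.76%. The list median was -0.05 without day 1 replicate 3. Tef, an output factor of the clock, was the other that fell, from 9.37, 9.29 and 9.60 to 8.75, 8.55 and 8.72 (change -0.74, SE 0.14, adjusted p = 0.018). Tef had an adjusted p of 0.066, 0.083 and 0.064 without day 1 replicates 1 and 3 and day 6 replicate 2. Arntl had a value of 0.55 (adjusted p = 0.11) and Per3 one of -0.78 (0.11), each without overlap between the days. For Npas2 the probe sets disagreed on the test, with 1.36 (adjusted p = 0.040) on the dimmer and 0.51 (0.22) on the brighter. The dimmer one gave 0.097, 0.098 and 0.13 without day 1 replicates 1, 2 and 3 and 0.16 without day 6 replicate 1. On day 0 Nr1d1 read 7.95 to 8.11 and Cry1 7.0 to 7.3, so for both day 6 stood nearer to day 0 than day 1 did, whereas Per2, at 4.69 to 5.36, lay between the days. The hour at which each animal was sampled is not given, and its part in these changes was not tested.

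**Figure D2:**
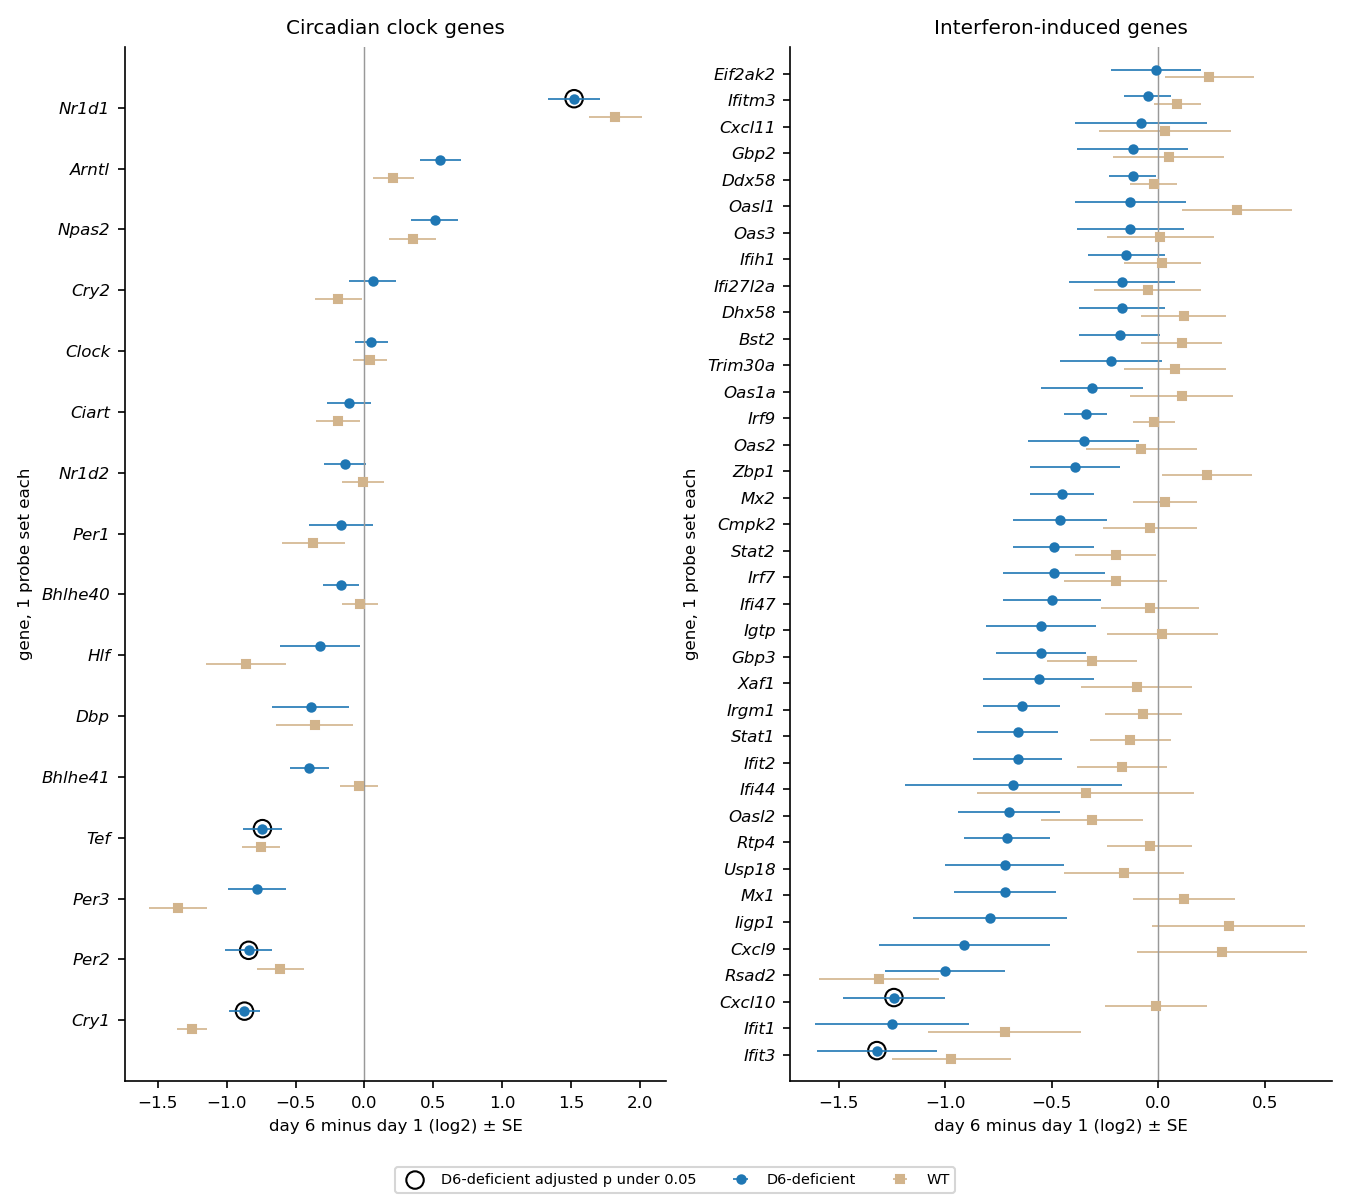
Change from day 1 to day 6 (log2, points with SE) of 16 circadian clock genes and 38 interferon-induced genes in D6-deficient skin (circles) and WT skin (squares), with rings at an adjusted p under 0.05 in D6-deficient skin. Nr1d1 stands at 1.52 and 1.82 in the genotypes and Cry1 at -0.87 and -1.25, while Cxcl10 stands at -1.24 and -0.01.

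The E-box CACGTG, the motif bound by Arntl and its partners, was searched in the same windows after the values were seen. Of 14 clock genes with a window 35.7% held it, namely Bhlhe41, Ciart, Cry1, Per1 and Tef. It was found in 17% of the 47 genes with a window that fell and in 12.5% of the 24 that rose, against 10.8% of all tested genes with a window. It reads the same on both strands. The windows of Cry1, chr10:85185005-85185304 on the minus strand, and of Tef, chr15:81802423-81802722 on the plus strand, are shown because both genes fell and both windows hold the motif, in capitals. Per2 has no window in the table.
Cry1: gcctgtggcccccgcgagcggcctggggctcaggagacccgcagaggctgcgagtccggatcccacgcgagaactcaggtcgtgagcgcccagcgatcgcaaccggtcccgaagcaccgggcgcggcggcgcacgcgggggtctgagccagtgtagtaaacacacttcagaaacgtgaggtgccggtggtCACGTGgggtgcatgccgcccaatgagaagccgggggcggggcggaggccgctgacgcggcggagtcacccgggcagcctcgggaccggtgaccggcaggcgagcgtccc
Tef: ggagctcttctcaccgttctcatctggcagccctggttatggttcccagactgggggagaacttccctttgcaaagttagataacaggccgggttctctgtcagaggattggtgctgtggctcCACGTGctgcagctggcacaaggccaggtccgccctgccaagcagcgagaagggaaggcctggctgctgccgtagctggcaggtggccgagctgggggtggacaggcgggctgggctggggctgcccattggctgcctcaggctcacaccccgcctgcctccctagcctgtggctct

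Interferon-induced genes were lower on day 6 in a body. All 38 tested members had a change below 0, although 1 was above 0 after the arrays were centred on their medians, where 48.7% of all genes were lower. The median change was -0.49, it ran from -0.54 to -0.35 without single arrays, and 15 members had day 6 wholly below day 1, where 6.76% of all genes did. Ifit3 and Cxcl10 fell and no member rose, where 0.208% of all genes fell and 0.0957% rose. The list level was 8.13, 8.30 and 8.55 on day 1 and 7.93, 7.53 and 8.03 on day 6, after 8.12, 7.87 and 8.10 on day 0, so the days did not overlap. Day 1 lay above day 0, at the least by 8.13 against 8.12, and day 6 reached into the range of day 0. Most abundant was Ifitm3, at 12.77 and 12.72.

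Cxcl10 encodes a chemokine that draws in T cells bearing the receptor CXCR3. It read 8.08, 7.79 and 7.99 on day 1 and 6.38, 6.59 and 7.18 on day 6, with 7.14 to 7.22 on day 0, a change of -1.24 (SE 0.24, adjusted p = 0.019). The day 1 arrays were above day 0 and 2 of the 3 day 6 arrays were below it. Its adjusted p was 0.10 and 0.059 without day 1 replicates 1 and 3 and 0.095 and 0.063 without day 6 replicates 1 and 2. Ifit3, of a family of proteins that bind viral RNA, read 9.08, 9.13 and 9.82 and then 8.36, 7.58 and 8.16, a change of -1.32 (SE 0.28, adjusted p = 0.040). That p was 0.087, 0.079 and 0.14 without day 1 replicates 1, 2 and 3 and 0.13 without day 6 replicate 2. Its relative Ifit1bl1, called outside the list, read 6.87, 6.48 and 7.46 and then 5.57, 5.33 and 5.0, below the 5.59 to 6.39 of day 0, a change of -1.63 (SE 0.30, adjusted p = 0.017, but 0.062 and 0.080 without day 1 replicates 1 and 3). Rsad2, the antiviral protein viperin, fell on a dim probe set by 1.26 on the log2 scale (adjusted p = 0.015, and 0.074 without day 1 replicate 3). On its brightest probe set the difference between the days was -1.0 (adjusted p = 0.13).

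Leukocyte markers give the setting of these values. T and NK cell genes were lower on day 6 in 24 of 32 members, where 48.7% of all genes were, and in 19 after the arrays were centred. Their median was -0.10. That median was -0.36 without day 6 replicate 3 and -0.01 without day 1 replicate 3, and the levels were 7.02, 7.08 and 7.23 on day 1 and 6.78, 6.69 and 7.36 on day 6. Macrophage and monocyte genes were higher in 14 of 25, with a median of 0.05 that was -0.07 without day 6 replicate 3 and 0.13 without day 6 replicate 2, and levels of 10.26, 10.47 and 10.56 and then 10.59, 10.21 and 10.65. Neither list had a member that passed, and their days overlapped. The most abundant members were Thy1 (11.15 and 11.68) and Lyz1 (13.90 and 13.86), and Gzmd, Gzme and Ifng were below the filter. What these cells contribute to the interferon-induced genes was not tested.

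The core of the interferon response element, GAAA, any 2 bases and GAAA again, searched on both strands, was found in 63.0% of the 27 interferon-induced genes with a window in 12.8% of the 47 genes that fell and in 12.5% of the 24 that rose, against 3.58% of all tested genes with a window. The 4 windows given here belong to Ifit3, Cxcl10 and Rsad2 of the list and to Ifit1bl1 from outside it. Ifitm3 is among the list members that hold the core too and are not shown. In the 4 windows capitals mark the core, which reads with TTTC in place of GAAA when it lies on the other strand. The AP-1 letters also occur, in lower case, in those of Ifit3, Cxcl10 and Rsad2. They lie at chr19:34583279-34583578 (plus strand) for Ifit3, chr5:92348840-92349139 (minus) for Cxcl10, chr12:26456403-26456702 (minus) for Rsad2 and chr19:34601919-34602218 (minus) for Ifit1bl1, which has a second window with the core. The Krtap8-1 and Krtap11-1 windows hold neither this core nor the AP-1 site nor the E-box, and Ereg and Sh2d5 have no window.
Ifit3: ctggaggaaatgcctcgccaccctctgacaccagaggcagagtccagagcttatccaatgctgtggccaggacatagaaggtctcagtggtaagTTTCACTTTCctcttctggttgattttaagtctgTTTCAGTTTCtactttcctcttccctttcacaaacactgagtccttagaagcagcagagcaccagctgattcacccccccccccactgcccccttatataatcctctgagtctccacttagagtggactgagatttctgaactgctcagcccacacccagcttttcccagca
Cxcl10: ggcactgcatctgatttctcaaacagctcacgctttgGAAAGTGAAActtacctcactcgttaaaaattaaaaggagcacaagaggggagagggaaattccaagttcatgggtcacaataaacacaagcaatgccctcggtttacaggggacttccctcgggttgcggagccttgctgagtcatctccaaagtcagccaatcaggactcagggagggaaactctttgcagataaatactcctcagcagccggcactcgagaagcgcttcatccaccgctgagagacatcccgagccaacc
Rsad2: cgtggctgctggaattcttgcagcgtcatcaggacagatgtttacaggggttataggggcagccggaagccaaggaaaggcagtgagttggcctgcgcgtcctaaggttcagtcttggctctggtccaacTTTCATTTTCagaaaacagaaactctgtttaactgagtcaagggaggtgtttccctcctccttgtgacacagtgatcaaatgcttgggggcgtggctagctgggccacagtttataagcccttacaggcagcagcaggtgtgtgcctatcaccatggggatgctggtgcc
Ifit1bl1: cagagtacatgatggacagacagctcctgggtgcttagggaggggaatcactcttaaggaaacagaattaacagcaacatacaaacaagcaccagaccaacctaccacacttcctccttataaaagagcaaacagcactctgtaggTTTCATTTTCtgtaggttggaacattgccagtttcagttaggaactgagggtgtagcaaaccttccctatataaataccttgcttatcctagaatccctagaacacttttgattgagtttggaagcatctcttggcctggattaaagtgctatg

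Further genes among the 104 were picked after their values were seen. Tsc22d3, which encodes the glucocorticoid-induced protein GILZ, read 9.79, 9.96 and 10.75 on day 1 and 8.44, 8.41 and 9.11 on day 6, and fell by 1.51 on the log2 scale (SE 0.21, adjusted p = 0.0016), and its other probe set fell by 1.5. It passed without any 1 array, at adjusted p values up to 0.028. Fkbp5, a chaperone partner of the glucocorticoid receptor that glucocorticoids induce, changed by -1.09 (SE 0.20, adjusted p = 0.017, but 0.083 without day 1 replicate 3 and 0.060 without day 6 replicate 2 and 0.065 with array weights). Hsph1, a heat shock protein, read 9.10, 9.16 and 8.96 and then 8.20, 8.16 and 7.40, a change of -1.16 (SE 0.19, adjusted p = 0.0089, at most 0.043 without 1 array). Its day 0 arrays read 7.60 to 7.82. In the other direction moved Cirbp, an RNA-binding protein that cooling induces, with 7.55, 7.75 and 7.55 on day 1, 8.39, 9.1 and 9.0 on day 6 and a rise of 1.21 (SE 0.20, adjusted p = 0.0089, and 0.051 without day 1 replicate 1). Shoc2, a scaffold of the RAS pathway, read 8.59, 8.62 and 8.52 on day 1 and 10.10, 10.34 and 9.73 on day 6, a rise of 1.48 (SE 0.24, adjusted p = 0.0064, at most 0.043 without 1 array). The 3 day 0 arrays of Shoc2, at 8.46, 9.28 and 9.84, spanned both days, whereas all WT arrays of days 0, 1 and 6 lay between 9.53 and 10.02.

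In WT skin the same 2 days differed at 42 probe sets (0.117% of those tested), 13 higher on day 6 and 29 higher on day 1. Of these, 5 were called (0.0139%), for Nr1d1 and Cdkl4 upward and for Per2 and 2 probe sets of the oxidase gene Fmo2 downward, named after their values were seen. The WT calls numbered 9 without WT day 1 replicate 1 and 3 without WT day 6 replicate 2, and the 42 became 17 without WT day 1 replicate 3 and 20, 21 and 19 without WT day 6 replicates 1, 2 and 3. The lists of the genotypes had 20 probe sets in common, 19.2% of the D6-deficient list and 47.6% of the WT list. Of these 20, 5 were higher on day 6 and 15 higher on day 1 in both genotypes, and none passed in opposite directions. The changes of the genotypes share no array, but both were tested in the same joint fit. Each probe set had the same estimate of spread in both tests, so the lists are not independent and their overlap is not a separate replication. Of the 104, 100 had the same sign in WT skin, but the share over all probe sets was not counted, so this count has no baseline. The WT medians of the 104 were 0.39 for those that rose in D6-deficient skin and -0.62 for those that fell. Over all probe sets the median in WT skin was 0.005. Per2 changed there by -2.49 (adjusted p = 1.4e-04), Cry1 by -1.25 (1.7e-06), Nr1d1 by 1.82 (2.7e-05) and Jun by -0.50 (0.044). Among the WT changes that did not pass were Krtap8-1 at 3.22 (adjusted p = 0.22), Ereg at -1.35 (0.20), Lce3c at -1.48 (0.24) and Ifit1bl1 at -0.98 (0.30).

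The difference between the genotypes in this change was tested directly, and limma passed 0 probe sets (0%), with 1228 at an unadjusted p under 0.05. With the 12 arrays of the 4 groups alone 1 probe set passed, and without WT day 6 replicate 3 another did, Ngfr. Wide gaps between the genotypes in genes named here did not pass either. Cxcl10 had -0.01 in WT skin, where it read 6.35, 7.17 and 7.06 on day 1 and 6.90, 6.80 and 6.84 on day 6, and the difference was -1.22 (SE 0.34, adjusted p = 1.00). For Shoc2 the difference was 1.52 (SE 0.34) and for Sh2d5 -1.23 (SE 0.45), both at an adjusted p of 1.00. The interferon-induced list had a WT median of -0.02 beside -0.49, and the hair list 0.99 beside 1.30. In the activated epidermis list the WT median was -1.01 beside -0.99. It was -0.33 beside -0.47 in the cornified envelope and barrier list and -0.19 beside -0.17 in the clock list. The dim probe set of Rsad2 passed in both genotypes, with -1.13 in WT skin beside -1.26. So a change named above is given for D6-deficient skin, and none is shown to differ from WT skin.

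**Figure D3:**
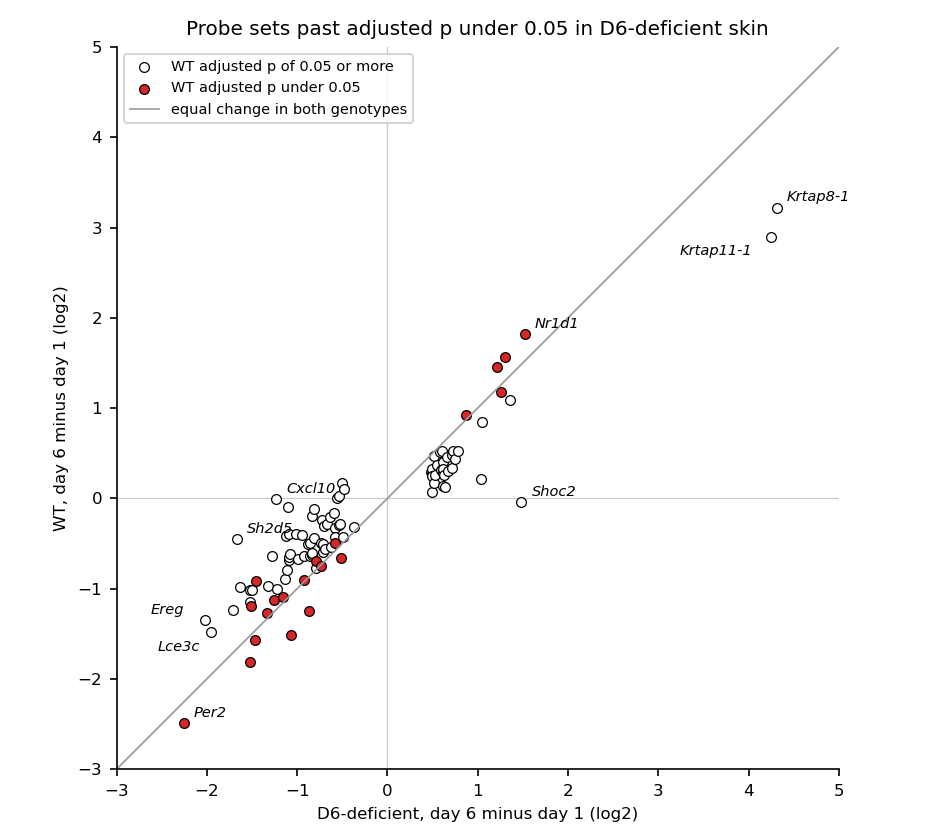
Change from day 1 to day 6 (log2) in D6-deficient skin (x axis) and WT skin (y axis) of the 104 probe sets that passed in D6-deficient skin, filled where they also passed in WT skin, with a line of equal change. Per2 at -2.26 and -2.49 lies close to the line, and Shoc2 at 1.48 and -0.04 lies off it.

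No sebaceous gland gene passed between the days. The list was higher on day 6 in 17 of 22 tested members, where 51.3% of all genes were, and 6 members had day 6 wholly above day 1, where 7.39% of all genes did, with a median of 0.39 (0.27 without day 6 replicate 3 at the lowest). Its level was 10.02, 9.98 and 9.93 on day 0, 8.22, 8.45 and 8.65 on day 1 and 8.72, 8.87 and 9.42 on day 6, so every day 6 array was above every day 1 array and below day 0. Fa2h, which makes the hydroxylated fatty acids of sebum, read 7.03, 7.64 and 8.15 on day 1 and 8.87, 8.95 and 10.39 on day 6, after 12.57 to 12.78 on day 0, a change of 1.80 (SE 0.45, adjusted p = 0.087). Elovl3, an elongase of the same gland, had 2.18 (SE 0.64, adjusted p = 0.14). Scd1, the most abundant member, did not follow, at 13.96 and 13.95, and Acot5 was below the filter. In WT skin the median was 0.05.

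Neutrophil genes were lower on day 6 in 16 of 21 members, where 48.7% of all genes were, and none passed. Their median was -0.30, which was -0.54 without day 1 replicate 1 and -0.16 without day 1 replicate 2. The level was 6.74, 7.53 and 6.95 on day 1 and 6.54, 7.20 and 6.47 on day 6, after 6.26, 6.00 and 6.25 on day 0, and the days overlapped, with replicate 2 the highest of each. The most abundant was S100a9 (13.31 and 12.44), which irritated keratinocytes make too and which also stands in the activated epidermis list. Skeletal muscle genes, of the muscle sheet under the skin, had levels of 10.65, 10.10 and 10.38 on day 1 and 10.54, 9.99 and 10.70 on day 6, against 12.28 to 12.54 on day 0. Their median was 0.05 over 24 members (-0.09 without day 1 replicate 2 and 0.27 without day 6 replicate 2), none of which passed, with Acta1 the most abundant (13.56 and 13.44). The part of these tissues in the changes of other genes was not tested.

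**Figure D4:**
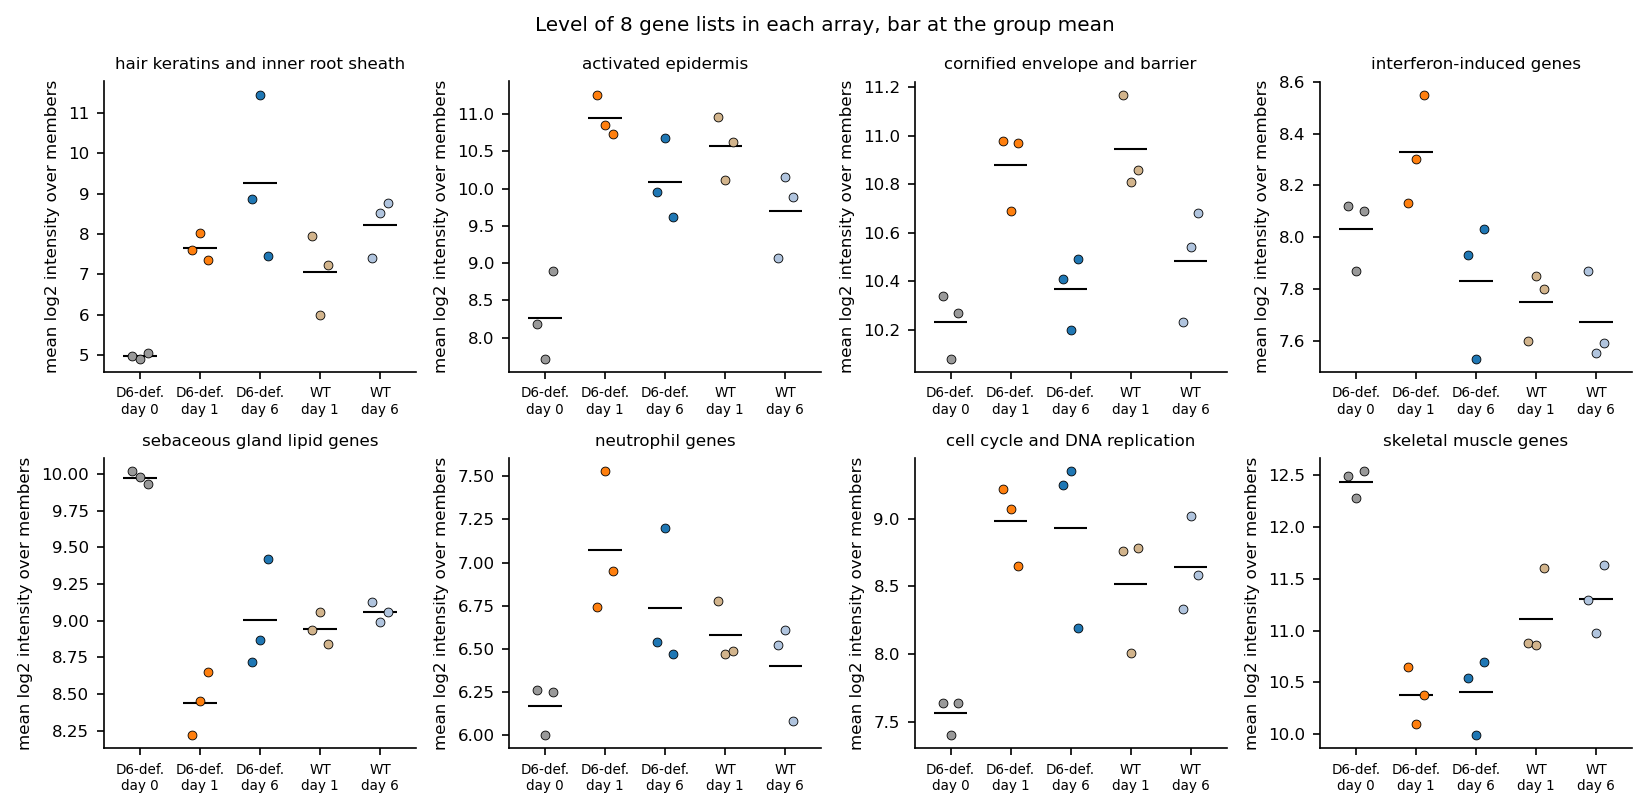
Mean log2 intensity over the tested members of 8 gene lists in each array, with a bar at the mean of 3 arrays, for D6-deficient skin on days 0, 1 and 6 and WT skin on days 1 and 6. On D6-deficient day 6 the hair list runs from 7.45 to 11.45 and the sebaceous list from 8.72 to 9.42, and the activated epidermis from 9.62 to 10.68, below the 10.73 to 11.26 of day 1.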

How the data were processed

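The authors summarised the arrays by RMA, as the submitters' notes state, and deposited linear intensities, whose log2 was taken here without further scaling. The table holds 45101 probe sets. Removing 64 controls gave 45037, and a filter on mean level dropped the dimmest 20%, or 9008, so that 36029 with means of at least 3.72 were tested. Of the 45037, 38544 carried 1 gene symbol, 860 several and 5633 none, 35404 were matched to a RefSeq gene by Entrez identifier, and 3735 symbols were updated that way. Array medians ran from 5.64 to 5.80 and single values from 2.26 to 14.98, and the number of arrays limits the precision. limma 3.58.1 in R 4.3.3 modelled the 30 arrays jointly by genotype and day (20 residual degrees of freedom), and p values were adjusted by Benjamini-Hochberg over all tested probe sets of a contrast. An exact permutation test of 3 arrays against 3 could not go below p = 0.1. Tables and figures were made with Python 3.11.15, pandas 2.3.3 and matplotlib 3.10.9.

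The rule for named genes takes up to 12 called genes in each direction, the first 3 tested members of a list and up to 3 with the largest change past the adjusted p, and the D6 gene. Other members of lists were pointed out after their values were seen, namely Epgn, Per3, Tef, Fa2h, Elovl3 and dimmer probe sets of Npas2, Per2, Rsad2 and Errfi1. There were 36 gene lists, where a gene's brightest probe set stood for it. Members and lists were chosen with earlier results of these data known. The labels number the replicates 1 to 3 without saying what a number shares, and the days used different animals. The deviations of day 1 and day 6 arrays with the same number correlated at 0.34, 0.13 and 0.48 across probe sets, so the number was also fitted as a block. Hybridization controls split the arrays into 17 high and 13 low, and all 3 D6-deficient day 6 arrays were high. Alternatives were no filter, a 40% filter, median centring, fewer arrays, the block, the control sets, array weights, a mean-variance trend with robust fit, the methods' t-test, other fold thresholds, and leaving out each array. The limma code was also run on simulated data with normal noise, equal in all groups, and planted changes of a known size. That run checks the code alone and says nothing about the probe sets found here.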

Additional observations from a re-analysis of the deposited data

How the results depend on the processing

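In D6-deficient skin 8 probe sets were called and 104 passed. Of the 104, 102 still passed with no filter, 92 with a 40% filter, 93 with median centring, 88 with the control sets as a covariate and 95 with a trend and robust fit. The counts, called first and adjusted p alone second, were 2 and 2 with only the arrays of the contrast, 2 and 36 with only D6-deficient arrays, 3 and 8 within the high control set, 0 and 0 with the methods' t-test after adjustment, and 31 and 559 with array weights. A trend with robust fit called 5, without Krtap8-1, Lce3c and Aqp5, and the covariate lost Aqp5. Calls numbered 104 with no fold threshold and 40 at more than 2-fold. Leaving out 1 array gave 3 to 68 calls and 25 to 468 at adjusted p alone. With the replicate number as a block, 8 were called and 92 passed, but only 81 of the 104 were among the 92, and 24 of the 249 named or listed probe sets changed sides. Of what the text names, Lce3c, a probe set of Per2 (-0.69), a second probe set of Fkbp5 and the probe set without a symbol did so, and the block changed no other call named there.

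In WT skin, with 5 called and 42 passing, the counts were 6 passing with only the arrays of the contrast, 0 and 0 within the high control set, 9 and 9 within the low set (fits in which WT day 1 and WT day 6, respectively, hold 1 array, so these counts say little), 0 and 0 with the adjusted t-test, 17 with the unadjusted t-test, and 8 and 84 with array weights. Calls numbered 42 with no fold threshold and 23 at more than 2-fold, and leaving out 1 array gave 3 to 9 calls and 17 to 35 at adjusted p alone. For the genotype difference, with 0 passing, 1 was called with only the arrays of the contrast and 1 within the high set, both the probe set without a symbol (the high set holds 1 WT day 1 array), and leaving out 1 array gave 0 to 1. That difference has no t-test of its own, its arrays of both genotypes and all days are those already used, and no D6-deficient day 6 array is in the low set. The D6 gene differed by -0.07 on its brightest probe set, -0.69 and -1.41 on the others and -0.72 on their mean. The cause of these shifts was not tested.

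None of 249 probe sets with a test, named or listed, reversed a passing direction. Of 36 list medians, 19 changed sign in some alternative, and single arrays moved some of these far, as from 0.08 to -0.29 or 0.39 for eosinophil genes, and 595 of the list values moved by less than their spread and 17 by more. The comparison rests on 3 animals a day, whole skin mixes many cell types, and the days used different animals, so a change within an animal was not measured. The spread between arrays was borrowed from all 10 groups, and with the 6 arrays alone none of the 104 passed, so the length of the list depends on that choice. Dim probe sets lie near the background of the array, where a fold change is less certain. The labels give no hour of sampling, and no second platform or protein measurement is at hand.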

Other observations

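Cell cycle and DNA replication genes had levels of 7.64, 7.40 and 7.64 on day 0, 9.22, 9.07 and 8.65 on day 1 and 9.25, 9.35 and 8.19 on day 6. Their median change from day 1 to day 6 over 46 members was -0.04, but 0.35 without day 6 replicate 3 and -0.25 without day 6 replicate 2, so its sign rests on single arrays, and none passed. Melanocyte pigment genes, which follow the growing hair, read 5.6 to 5.67 on day 0, 8.17, 7.97 and 7.47 on day 1 and 8.40, 8.56 and 6.70 on day 6, with a median of -0.11 over 13 members (0.43 without day 6 replicate 3 and -0.31 without day 6 replicate 2). Day 6 replicate 3 was the lowest of the 6 arrays in both lists and the lowest of day 6 in the hair list, and it was the highest in the eosinophil list, at 8.02 against 7.01 and 6.41 for the other day 6 arrays and 6.87 to 7.21 on day 1.

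In none of the following lists did the brightest probe set of a member pass between the days in D6-deficient skin. Dimmer ones of Ptges, Fbn1 and Vcam1 did, but each lost this in most of the 6 leave-out fits. The Ptges probe sets passed in only 2 and 1 of them, that of Fbn1 in 2 and that of Vcam1 in 1. The medians were -0.09 for epidermal keratins, -0.18 for neutrophil chemoattractants and cytokines, -0.11 for CC chemokines and receptors, 0.03 for fibrillar and basement membrane matrix, -0.09 for matrix proteases and inhibitors, 0.08 for hair cycle signalling and 0.05 for cholesterol and fatty acid synthesis. They were -0.04 for adipocyte genes, 0.13 for smooth muscle and pericyte genes, -0.07 for dendritic, Langerhans and MHC-II genes, 0.03 for B and plasma cell genes, -0.05 for mast cell and basophil genes and 0.08 for eosinophil genes. For vessels, blood endothelial genes had -0.17 and lymphatic endothelial genes, of cells in which D6 is known, 0.09. The remaining medians were 0.15 for erythrocyte genes, 0.10 for nerve and Schwann cell genes, 0.02 for fibroblast genes, 0.05 for complement, 0.03 for antioxidant and metallothionein genes and -0.04 for atypical chemokine receptors. In the list of neutrophil chemoattractants and cytokines 21 of 24 members were lower on day 6, where 48.7% of all genes were, and 18 after centring. Its level was 5.74, 5.92 and 5.92 on day 1 and 5.52, 5.64 and 5.55 on day 6, so the days did not overlap. Many of the medians above rest on single arrays. Leaving out 1 array gave -0.29 to 0.39 for eosinophil genes, -0.16 to 0.25 for atypical chemokine receptors, -0.20 to 0.31 for erythrocyte genes, -0.28 to -0.02 for CC chemokines, -0.28 to 0.04 for dendritic cell genes, -0.26 to 0.05 for adipocyte genes and -0.27 to 0.00 for mast cell genes. It also gave -0.10 to 0.30 for hair cycle signalling and -0.07 to 0.22 for complement. For lymphatic endothelial genes the range was -0.04 to 0.23 and for blood endothelial genes -0.24 to -0.04.

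Some probe sets took separate levels among D6-deficient animals. One without a gene symbol read 8.55, 8.89 and 8.91 on day 1 and 4.22, 4.30 and 4.33 on day 6, but 4.27, 4.42 and 8.11 on day 0, and 4.25 to 4.56 on all WT arrays of days 0, 1 and 6. Its change of -4.50 had an adjusted p of 0.053, with 0.027 with the replicate block and 1.4e-04 with only the 6 arrays. Gm3579 read 8.69, 8.38 and 8.41 on day 1 and 5.11, 4.23 and 3.85 on day 6, with 3.85, 6.02 and 8.00 on day 0, a change of -4.09 (adjusted p = 0.14). A probe set of Rps9 read 7.22, 12.08 and 7.30 on day 1 and 12.01, 7.53 and 11.77 on day 6, where the WT arrays of both days lay between 7.28 and 7.70 and the brightest Rps9 probe set was at 13.45 to 13.60 on all 6 D6-deficient arrays. These probe sets were chosen after their values were seen.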
